A study of Mus musculus with 11 samples.

Results

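The 43 hypoxia and glycolysis genes are a set chosen by name, and 42 of them are listed among the 14604 genes of the deposited values. Adm, which encodes the vasodilator peptide adrenomedullin, is not listed. MC38, a mouse colon adenocarcinoma line, was grown as a graft in every mouse, and Tregs were sorted as live CD4+GITR+CD25+ cells from the tumors (TI-Tregs) and from the spleens of the same mice, so tumor and spleen libraries share animals. The labels do not say which libraries these are. All 11 libraries came from mice with the floxed Cd177 gene. The wild-type group is labelled CD177flox/flox (3 spleen and 3 tumor libraries), and the knockout group CD177flox/flox/FOXP3-CreYFP (3 spleen and 2 tumor libraries), in which the Foxp3 promoter drives Cre. The labels do not say which libraries came from separate mice, so each p-value measures only the spread between libraries, which may be technical. Ages are not given in the sample labels.

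When oxygen is plentiful, the prolyl hydroxylases of the EGLN family mark the HIF alpha subunits for VHL, which has them degraded. When oxygen is low, the alpha subunits persist, pair with ARNT and bind a short core sequence, ACGTG or GCGTG, near genes of glucose uptake, glycolysis, lactate export, vessel growth and mitochondrial turnover. T cells raise many of the same glycolytic genes when they are activated, and so do activated myeloid cells.

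Levels are given as log2(n + 1), where n is the authors' estimated count summed by gene symbol, and differences are tumor minus spleen on that scale. The sum of n per library was 712832 to 844331 in spleen and 1103159 to 1304548 in tumor. These sums lie far below the approximate read depth given in the study's methods. No source used here says how n was scaled, so the number of reads behind a value is not known. The markers of the sort and of other cells moved with the tissue. Foxp3 was at 6.35 in spleen and 5.50 in tumor on average (a difference of -0.85), Tnfrsf18, which encodes GITR, rose by 1.08, and Il2ra, which encodes CD25, did not pass the test (-0.27). All 18 myeloid markers were higher in tumor, and the log2 of their summed n was 8.83 to 9.87 in spleen and 14.32 to 14.75 in tumor. Of 5 listed fibroblast markers 4 rose (sum 1.81 to 2.14 in spleen, 8.84 to 9.94 in tumor). Of 13 T cell and Treg markers 8 fell and 2 rose (sum 11.52 to 11.69 in spleen, 10.94 to 11.65 in tumor). Of 6 B cell markers 5 fell, and of 8 erythroid and platelet markers 7 fell. Of 9 markers of CD8 T and NK cells 5 rose and 1 fell. Of 3 endothelial markers 2 rose and 1 fell, and of 3 tested epithelial markers 1 rose and 1 fell. The part of these cells in the differences below was not tested, and in bulk RNA a change in the share of a cell type cannot be told apart from a change of RNA per cell. Below, TI-Tregs and spleen Tregs name the libraries by their sort, and their values may include RNA of other cells.

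Most of the hypoxia and glycolysis genes were higher in the libraries of sorted TI-Tregs, where the myeloid and most fibroblast markers were higher too. The part of other cells in these rises was not tested. Of 42 members, 37 were higher, 2 were lower (Ldhb and Slc2a3) and 3 did not pass the test (Eno2, Pdk1 and Kdm3a), by limma with an adjusted p below 0.05 over all genes. Across all 13897 genes tested, 43.1% were called higher and 35.9% lower. A rise of at least 1 was called for 33 members, against 20.4% of all genes. In 35 members every tumor library lay above every spleen library, against 35.2% of all genes, and in 1, Ldhb, every tumor library lay below, against 28.4%. The median difference was 2.13 over the members and 0.08 over all genes. Among the 500 genes with the largest rises there were 14 members, and among the top 100 there were 2, Vegfa in position 17 and Bnip3 in position 64. The differences depend on the scaling of the libraries. With equal library totals the median of all genes moved to -0.43, and 34 members were higher and 4 lower, where 23.6% of all genes were called higher and 56.2% lower. The 4 lower members were then Ldhb, Slc2a3, Pdk1 and Kdm3a, and the median over the members was 1.51.

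**Figure D1:**
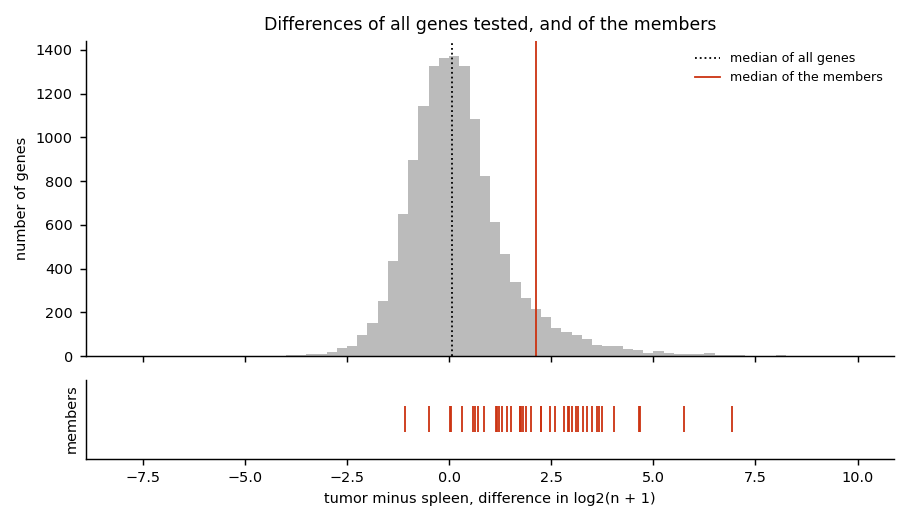
Histogram of tumor minus spleen differences in log2(n + 1) for all genes tested (grey bars, number of genes per interval), with each of the 42 listed hypoxia and glycolysis genes as a red tick in the strip under it. The median of the members (red line, 2.13) lies to the right of the median of all genes (dotted line, 0.08), and 2 members lie clearly to the left of 0.

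The promoters of these genes were read for the HIF core sequence. RefSeq windows (GRCm38.p6) of 300 bases, which run across the transcript start, were found for 37 of the 42 genes, 59 windows in all. Bhlhe40, Bnip3l, Epas1, Ndrg1 and Slc2a3 have no window. ACGTG was present on either strand in 31 of the 59 windows (52.5%), compared with 24.7% of the windows of all genes tested and 19.6% of all windows. With GCGTG counted as well, the shares were 79.7%, 60.0% and 43.8%. The mean GC content was 62.5% in the windows of the members and 60.1% in those of all genes tested. Since genes of this set are known as hypoxia genes, the shares are a description and no test was run. The stretches below end at or before the RefSeq transcript start and leave out every exon of the gene in GENCODE release M21. They show 4 genes that rose (Ldha, Pgk1, Hk2, Bnip3), the gene that fell without overlap (Ldhb) and a gene that did not pass the test (Pdk1). Capitals mark each ACGTG or GCGTG or their reverse complements CACGT and CACGC. The palindrome CACGTG holds 1 match on each strand, which overlap.
Ldha (chr7:46845654-46845803, plus strand): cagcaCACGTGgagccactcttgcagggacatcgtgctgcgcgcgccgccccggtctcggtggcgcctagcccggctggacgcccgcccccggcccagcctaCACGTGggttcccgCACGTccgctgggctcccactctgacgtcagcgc
Pgk1 (chrX:106186950-106187099, plus strand): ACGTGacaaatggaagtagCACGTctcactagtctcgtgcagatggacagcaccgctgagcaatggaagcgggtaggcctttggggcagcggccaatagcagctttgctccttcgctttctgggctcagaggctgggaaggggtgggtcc
Hk2 (chr6:82774455-82774604, minus strand): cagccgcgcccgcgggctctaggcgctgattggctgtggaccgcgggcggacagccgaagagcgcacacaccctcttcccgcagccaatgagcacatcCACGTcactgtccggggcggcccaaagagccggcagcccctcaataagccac
Bnip3 (chr7:138909520-138909656, minus strand): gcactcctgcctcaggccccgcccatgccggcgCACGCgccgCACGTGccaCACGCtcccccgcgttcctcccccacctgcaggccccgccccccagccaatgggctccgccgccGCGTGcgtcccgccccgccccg
Ldhb (chr6:142507958-142508107, minus strand): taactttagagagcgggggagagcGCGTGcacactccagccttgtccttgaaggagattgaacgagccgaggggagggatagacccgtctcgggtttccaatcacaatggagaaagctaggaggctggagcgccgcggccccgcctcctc
Pdk1 (chr2:71873074-71873223, plus strand): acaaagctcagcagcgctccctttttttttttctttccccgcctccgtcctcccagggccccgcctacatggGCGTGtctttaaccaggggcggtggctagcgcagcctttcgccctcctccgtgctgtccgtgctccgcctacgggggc
Ldha and Bnip3 hold 5 matches each in these stretches, Pgk1 holds 2, and Hk2, Ldhb and Pdk1 hold 1 each. Ldha and Pdk1 have another RefSeq window, which is not shown, since the window with most matches was taken for each gene. Over its full 300 bases, the window not shown holds 2 matches for Ldha and 0 for Pdk1. The full windows chosen hold more than the stretches printed for Ldha (7), Pdk1 (2) and Hk2 (2). Of the 37 genes with a window, 34 (91.9%) hold a match in at least 1 window, compared with 65.8% of the genes tested that have a window. This share grows with the number of windows per gene. The members had 59 windows for 37 genes, and the genes tested had fewer per gene (13233 windows for 10362 genes). Tpi1 and Gpi1, which rose, and Eno2, which did not pass the test, hold 0. A match describes the letters only, and Ldhb, which fell, holds one too.

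The 4 members grouped under oxygen sensing (Hif1a, Epas1, Egln1 and Egln3) were all called higher, compared with 43.1% of all genes. Other genes of oxygen sensing, Egln2 and Hif1an, fell, as given below. Hif1a encodes the alpha subunit that most cells use, and its log2(n + 1) was 6.52 to 7.05 in spleen Tregs (median 6.85, n = 6). Hif1a was at 8.13, 8.19 and 8.05 in wild-type TI-Tregs and at 8.49 and 7.67 in knockout TI-Tregs. The tumor libraries all lay above the spleen libraries, with a difference of 1.29 (SE 0.13, adjusted p = 1.42e-06, limma). Epas1, which encodes the second alpha subunit, known from endothelium and macrophages, was at 1.27 to 1.70 in spleen (median 1.61, n = 6). Epas1 reached 3.14, 3.75 and 2.68 in wild-type and 3.23 and 2.04 in knockout TI-Tregs. It rose by 1.41 (SE 0.24, adjusted p = 1.28e-04, limma), with a wider spread in tumor (SD 0.64) than in spleen (SD 0.17).

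Egln3 encodes an oxygen-sensing hydroxylase that HIF itself induces. Egln3 was at 1.68 to 2.24 in spleen Tregs (median 1.93, n = 6). It was at 4.86, 5.61 and 6.06 in wild-type and at 5.01 and 5.64 in knockout TI-Tregs. The rise of 3.50 (SE 0.19, adjusted p = 3.53e-09, limma) was more than that of Egln1, the main hydroxylase of the family, which was 1.52 (SE 0.12). Within each library, Egln3 minus Egln1 went from -2.33 ± 0.22 (SD, n = 6) to -0.35 ± 0.24 (SD, n = 5) without overlap (exact permutation test, two-sided, p = 0.0043). With 6 libraries against 5, no lower p can be reached. Among 6 other HIF pathway regulators 2 rose and 3 fell (43.1% and 35.9% of all genes). Vhl, which encodes the ubiquitin ligase subunit that recognises hydroxylated HIF, rose by 0.90, and Arnt2, a partner of the alpha subunits, rose by 1.75. Hif1an, which encodes the asparagine hydroxylase of HIF, fell by 0.62, Egln2 by 0.42 and Hif3a by 0.93, and Arnt did not pass the test (-0.09).

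The 2 glucose transporters of the set moved in opposite directions. Slc2a1 encodes GLUT1, the transporter that T cells raise on activation, and Slc2a3 encodes GLUT3. Slc2a1 was at 4.72 to 4.93 in spleen Tregs (median 4.76, n = 6). In TI-Tregs Slc2a1 was at 7.60, 7.74 and 8.01 in wild type and 7.87 and 7.89 in knockout. It was higher in all tumor libraries, by 3.02 (SE 0.075, adjusted p = 9.71e-12, limma). Slc2a3 was at 5.17 to 5.73 in spleen (median 5.39, n = 6) and at 5.42, 4.83, 4.71, 5.23 and 4.33 in the 3 wild-type and 2 knockout tumor libraries. The groups overlap, and Slc2a3 fell by 0.48 (SE 0.17, adjusted p = 0.0214, limma). That call was lost without wild-type tumor replicate 3 (-0.43, adjusted p = 0.052, limma) or knockout tumor replicate 2 (-0.34, adjusted p = 0.055, limma). Slc2a1 minus Slc2a3 averaged -0.59 ± 0.17 (SD, n = 6) among spleen libraries and 2.92 ± 0.55 (SD, n = 5) among tumor libraries, a change of 3.50 without overlap (exact permutation test, two-sided, p = 0.0043).

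**Figure D2:**
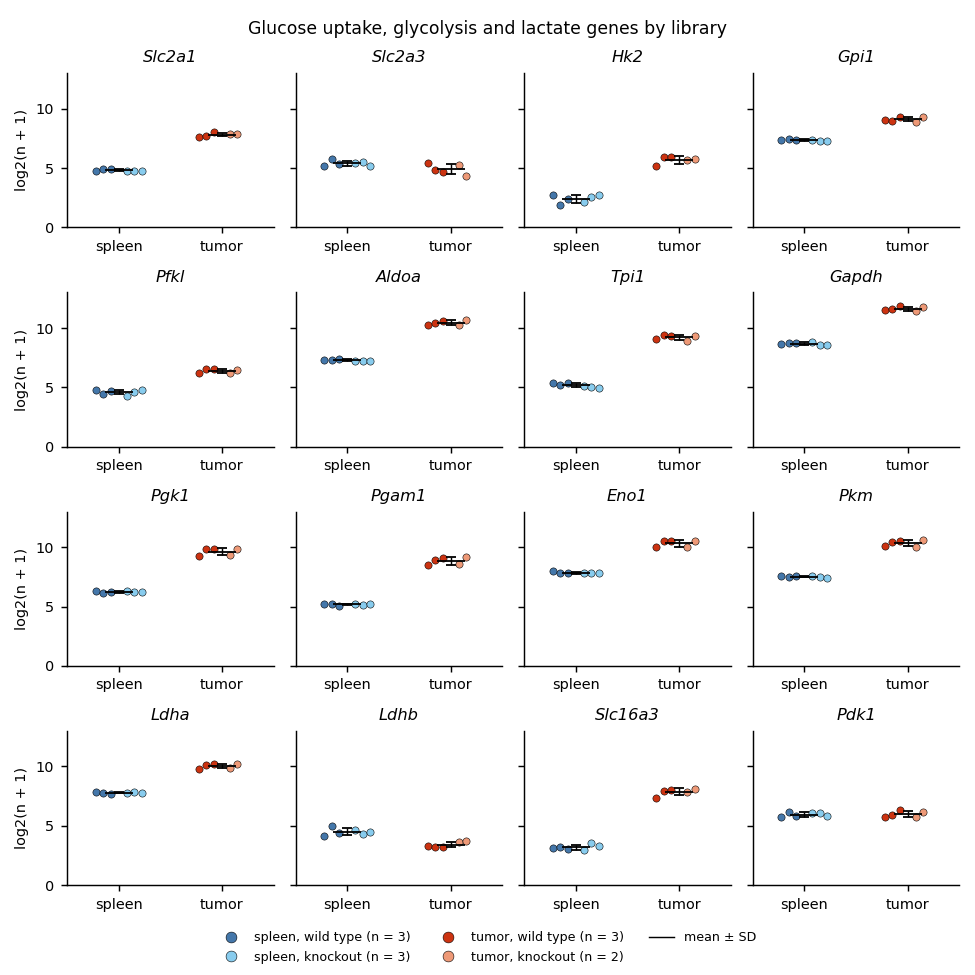
log2(n + 1) of 16 genes of glucose uptake, glycolysis and lactate handling in every library, with spleen on the left and tumor on the right of each panel. Points are single libraries coloured by tissue and genotype, and black bars give the mean and SD of 6 spleen and 5 tumor libraries. Groups overlap for Slc2a3 and Pdk1, Ldhb lies lower in tumor, and the other 13 genes lie higher in every tumor library.

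All 11 genes of upper glycolysis were called higher, compared with 43.1% of all genes. They run from hexokinase to triose phosphate isomerase and include the PFKFB enzymes that make the activator of phosphofructokinase. For Hk1 and Pfkm the call depended on the scaling, as given below. Hk2, the inducible hexokinase, was at 1.88 to 2.73 in spleen (median 2.50, n = 6). Hk2 reached 5.19, 5.91 and 5.92 in wild-type and 5.66 and 5.75 in knockout TI-Tregs. It rose by 3.27 (SE 0.17, adjusted p = 2.72e-09, limma) without overlap, while Hk1, the constitutive hexokinase, rose by 0.65 (SE 0.11). The Hk1 rise was 0.03 with equal library totals and no longer called. Tpi1, which encodes triose phosphate isomerase, had the largest difference among the 17 glycolytic enzymes of the set, and it was at 4.93 to 5.34 in spleen (median 5.18, n = 6). It was at 9.05, 9.37 and 9.35 in wild-type and at 8.95 and 9.34 in knockout TI-Tregs, and the difference was 4.05 (SE 0.10, adjusted p = 9.71e-12, limma).

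The aldolases rose together. Aldoa, the aldolase of muscle and most growing cells, was at 7.20 to 7.43 in spleen and at 10.24 to 10.64 in tumor, a rise of 3.16 (SE 0.083). Aldoc, known as the brain aldolase, was at 1.22 to 1.75 in spleen and at 4.86 to 5.38 in tumor, a rise of 3.61 (SE 0.12). Gpi1, which encodes glucose phosphate isomerase, rose by 1.76. Of the phosphofructokinases, Pfkl (liver type) rose by 1.81, Pfkp (platelet type) by 1.14 and Pfkm (muscle type) by 0.59. Pfkm was the only one of the upper glycolytic genes whose groups overlapped (2.46 to 2.94 in spleen, 2.72 to 3.63 in tumor, adjusted p = 0.0054, limma). Pfkm lost its call with quantile normalization and with equal library totals, where its difference was 0.34 and 0.04. Pfkfb3 and Pfkfb4 rose by 1.23 and 1.74.

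In lower glycolysis 5 of 6 genes rose, compared with 43.1% of all genes. Gapdh encodes glyceraldehyde phosphate dehydrogenase, which is often used as a constant reference gene. Gapdh was at 8.59 to 8.85 in spleen Tregs (median 8.69, n = 6). In TI-Tregs Gapdh was at 11.53, 11.60 and 11.85 in wild type and 11.40 and 11.76 in knockout, so all tumor libraries were higher, by 2.94 (SE 0.088, adjusted p = 2.84e-11, limma). Gapdh has many near-identical pseudogenes, among which pseudoalignment could split its reads. Summed with the 11 near copies that are listed, its value rose by 2.86 (exact permutation test, two-sided, p = 0.0043). Pgk1, the phosphoglycerate kinase gene, was at 6.17 to 6.34 in spleen (median 6.22, n = 6). Pgk1 was at 9.29, 9.85 and 9.84 in wild-type and at 9.37 and 9.81 in knockout TI-Tregs, a rise of 3.38 (SE 0.11, adjusted p = 3.79e-11, limma). Pgam1 rose by 3.67 (SE 0.12), Pkm, the pyruvate kinase gene, by 2.82 (SE 0.11) and Eno1 by 2.48 (SE 0.11), each without overlap. The values are summed by gene symbol, so the splice forms of Pkm are not separated.

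Eno2, the neuronal enolase, did not pass the test. It was at 1.47 to 2.16 in spleen (median 1.61, n = 6) and at 1.68, 2.01, 1.90, 2.30 and 2.17 in the wild-type and knockout tumor libraries. The difference was 0.32 (SE 0.14, adjusted p = 0.057, limma), and it passed the test without wild-type spleen replicate 2 (0.42, adjusted p = 0.0089, limma) or without wild-type tumor replicate 1 (0.40, adjusted p = 0.021, limma). With equal library totals its sign turned (-0.12). Over the 17 listed enzymes of upper and lower glycolysis, 16 were higher (43.1% of all genes) and the median difference was 2.48. Together with Ldha and Ldhb, these enzymes made up 0.206% to 0.237% of all n in the spleen libraries and 0.771% to 1.05% in the tumor libraries, and the groups do not overlap. A single gene, Gm12896, held 31.4% to 42.4% of n. Without it the shares were 0.338% to 0.377% in spleen and 1.30% to 1.68% in tumor.

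**Figure D3:**
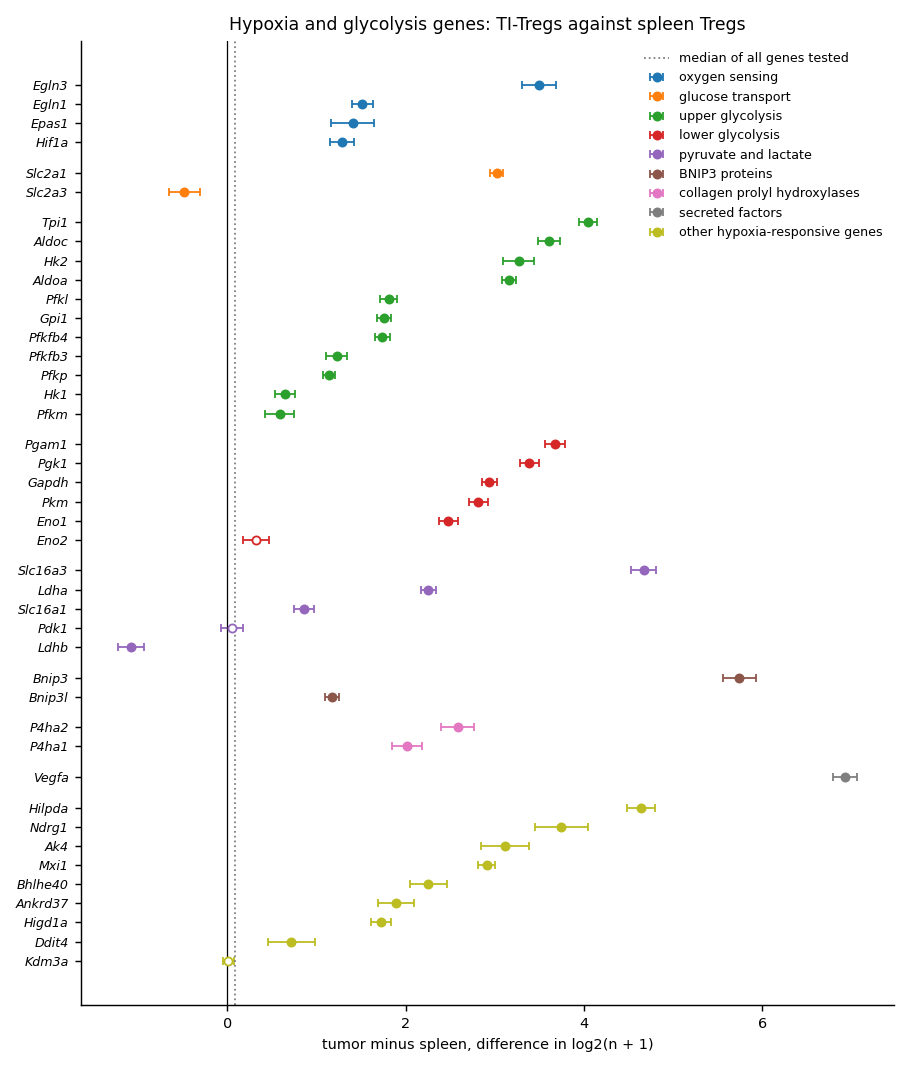
Tumor minus spleen difference in log2(n + 1) (horizontal axis) for each of the 42 listed genes, grouped by role (colours). Points are limma estimates from 5 tumor and 6 spleen libraries with bars of 1 standard error, open points did not pass an adjusted p of 0.05, and the dotted line is the median of all genes tested. Vegfa (6.93), Bnip3 (5.74) and Slc16a3 (4.67) lie farthest to the right, and Ldhb (-1.08) and Slc2a3 (-0.48) to the left of 0.

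The 2 lactate dehydrogenase genes moved apart. Ldha encodes the subunit that favours the making of lactate from pyruvate, and Ldhb the subunit known from tissues that take lactate up. Ldha was at 7.70 to 7.83 in spleen Tregs (median 7.78, n = 6). It was at 9.80, 10.13 and 10.19 in wild-type and at 9.85 and 10.19 in knockout TI-Tregs, a rise of 2.26 (SE 0.080, adjusted p = 9.54e-11, limma) without overlap. Ldhb was at 4.14 to 4.997 in spleen (median 4.43, n = 6) and at 3.28, 3.23, 3.23, 3.63 and 3.70 in the 3 wild-type and 2 knockout tumor libraries. All tumor libraries were lower, by -1.08 (SE 0.15, adjusted p = 1.85e-05, limma). Ldha minus Ldhb averaged 3.29 ± 0.30 (SD, n = 6) among spleen libraries and 6.62 ± 0.31 (SD, n = 5) among tumor libraries (exact permutation test, two-sided, p = 0.0043).

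Slc16a3 encodes MCT4, a lactate exporter of glycolytic cells, and Slc16a1 encodes MCT1, a carrier that most cells have. Slc16a3 was at 2.94 to 3.57 in spleen (median 3.16, n = 6). Slc16a3 reached 7.36, 7.93 and 8.04 in wild-type and 7.80 and 8.14 in knockout TI-Tregs. All tumor libraries were higher, by 4.67 (SE 0.14, adjusted p = 2.87e-11, limma), while Slc16a1 rose by 0.86 (SE 0.11). Bsg, which encodes the chaperone of both carriers and is not a member, rose by 2.62.

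Pdk1 encodes the kinase that shuts pyruvate out of mitochondrial oxidation and is a classical HIF target. It was at 5.70 to 6.17 in spleen (median 5.95, n = 6) and at 5.77, 5.93, 6.35, 5.77 and 6.18 in the wild-type and knockout tumor libraries. The groups overlap over nearly their whole range, and the difference was 0.05 (SE 0.12, adjusted p = 0.69, limma). The sign turned with 3 scalings. Pdk1 was called lower with quantile normalization (-0.32, adjusted p = 0.0253, limma) and equal library totals (-0.56, adjusted p = 0.000707, limma), and not with median centring (-0.16, adjusted p = 0.207, limma). Of 12 genes of the pyruvate dehydrogenase complex, its kinases and phosphatases and the mitochondrial pyruvate carriers, 7 rose and 2 fell (43.1% and 35.9% of all genes). Mpc1, a subunit of the carrier, rose by 1.38, Pdp1, a phosphatase that activates the complex, by 1.10 and Pdk3 by 0.78. Pdha1, the catalytic subunit of the complex, fell by 0.36, and Pdk4 by 0.55.

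Bnip3 and Bnip3l encode proteins of the mitochondrial outer membrane that mark mitochondria for autophagy. Bnip3 was at 1.69 to 2.61 in spleen Tregs (median 1.99, n = 6). Bnip3 was at 7.40, 7.76 and 8.18 in wild-type and at 7.53 and 8.09 in knockout TI-Tregs. All tumor libraries were higher, by 5.74 (SE 0.18, adjusted p = 4.25e-11, limma). Bnip3l was at 5.97 to 6.37 in spleen and at 7.16 to 7.43 in tumor, a rise of 1.18 (SE 0.079). Within each library, Bnip3 minus Bnip3l went from -4.10 ± 0.27 (SD, n = 6) to 0.46 ± 0.26 (SD, n = 5), the largest change among the pairs compared (exact permutation test, two-sided, p = 0.0043).

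Vegfa, which encodes the main growth factor of blood vessels, had the largest difference of the set. It was at 0.68 to 1.20 in spleen (median 0.91, n = 6). Vegfa was at 7.36, 7.92 and 8.16 in wild-type and at 7.74 and 7.96 in knockout TI-Tregs. All tumor libraries were higher, by 6.93 (SE 0.14, adjusted p = 1.32e-12, limma), and since n was low in spleen, the added 1 makes this an understatement of the change. The prolyl hydroxylases of collagen, P4ha1 and P4ha2, rose by 2.01 (SE 0.17) and 2.59 (SE 0.18), both without overlap. The fibroblast collagen genes Col1a1 and Col3a1 rose in the same libraries by 6.33 and 8.57.

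Among the other 9 hypoxia-responsive genes 8 rose, compared with 43.1% of all genes. Hilpda, which encodes an inhibitor of lipid breakdown in lipid droplets, rose by 4.64 (SE 0.16), from 2.78 to 3.12 in spleen to 7.11 to 8.07 in tumor. Ndrg1, a stress-induced gene, rose by 3.75 (SE 0.29), with the largest SD of the set in tumor (0.65, against 0.50 in spleen). Ak4, a mitochondrial adenylate kinase gene, rose by 3.11 (SE 0.27), Mxi1, which encodes a MYC antagonist, by 2.91 (SE 0.097) and Bhlhe40, a transcription factor gene, by 2.26 (SE 0.21). Ankrd37 rose by 1.89 (SE 0.20) and Higd1a, which encodes a mitochondrial inner membrane protein, by 1.73 (SE 0.11). These 7 genes showed no overlap between tumor and spleen libraries. Every tumor library lay above every spleen library for 35.2% of all genes.

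Ddit4, which encodes the mTORC1 inhibitor REDD1, and Kdm3a, a histone demethylase gene, behaved differently. Ddit4 was at 7.39, 6.27 and 5.70 in wild-type and at 5.56, 6.49 and 6.48 in knockout spleen Tregs. In TI-Tregs Ddit4 was at 6.94, 6.74 and 7.09 in wild type and 7.13 and 7.26 in knockout. One spleen library lay above every tumor library, and the rise was 0.72 (SE 0.26, adjusted p = 0.0237, limma). That call was lost without wild-type spleen replicate 3 (0.59, adjusted p = 0.052, limma) or knockout tumor replicate 2 (0.66, adjusted p = 0.054, limma), and with quantile normalization (0.16, adjusted p = 0.627, limma), median centring (0.50, adjusted p = 0.0981, limma) and equal totals (0.10, adjusted p = 0.759, limma). Kdm3a was at 4.64 to 4.82 in spleen (median 4.75, n = 6) and at 4.63, 4.78, 4.68, 4.85 and 4.79 in the wild-type and knockout tumor libraries. Its SD in tumor, 0.090, was the smallest of the set, and the difference was 0.01 (SE 0.063, adjusted p = 0.84, limma). With the same 3 scalings Kdm3a was called lower, by -0.25 with quantile normalization (adjusted p = 0.00235, limma), -0.20 with median centring (adjusted p = 0.0103, limma) and -0.59 with equal totals (adjusted p = 5.36e-05, limma).

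Genes of neighbouring pathways that are not members gave mixed counts. Across all genes tested, 43.1% were called higher and 35.9% lower. Of 20 other hypoxia-induced genes, 15 rose and 2 fell. Nos2, which encodes the inducible nitric oxide synthase known from macrophages, rose by 5.58, Lox, a collagen cross-linking enzyme gene, by 3.65, Ero1l by 3.05 and Car9, a carbonic anhydrase gene, by 1.16. Car12 fell by 1.69 and Kdm4c by 0.74. Of 14 genes of the pentose phosphate and glycogen branches, 11 rose and 2 fell, with a rise of 3.57 for Pygl, a glycogen phosphorylase gene, 2.19 for Gys1, a glycogen synthase gene, and 1.89 for Pgd. Of 12 other glycolytic isoenzymes and regulators 4 rose and 5 fell. Hk3, a hexokinase known from myeloid cells, rose by 4.25 and Slc16a7, another lactate carrier gene, by 1.93, while Pgam2, the muscle mutase, fell by 1.18 and Gapdhs, the sperm form of Gapdh, by 0.75.

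The members of 12 pairs of paralogs or isoenzymes were compared within each library, so that a factor shared by all genes of a library largely drops out. In 6 pairs the difference rose without overlap, in 2 it fell without overlap, and in 4 the tissues overlapped. For single genes, every tumor library lay above every spleen library in 35.2% of all genes, and below in 28.4%. The share among other pairs of genes was not computed, and these 12 pairs were chosen with earlier results of these data known. The smallest unadjusted p, 0.0043 (exact permutation test, two-sided), was reached by all 8 pairs without overlap. That p follows from the lack of overlap and adds nothing to it. The gain was 4.56 for Bnip3 over Bnip3l, 3.81 for Slc16a3 over Slc16a1, 3.50 for Slc2a1 over Slc2a3, 3.33 for Ldha over Ldhb, 2.62 for Hk2 over Hk1 and 1.98 for Egln3 over Egln1. Eno2 lost against Eno1 (-2.16), and Pfkp lost against Pfkl (-0.67). Pfkfb4 minus Pfkfb3 changed by 0.51 and Aldoc minus Aldoa by 0.45 (exact permutation test, two-sided, p = 0.0087 each), and P4ha2 minus P4ha1 by 0.57 (exact permutation test, two-sided, p = 0.026), but the sign of all 3 turned when 5 in place of 1 was added to n. The p of P4ha2 minus P4ha1 was 0.057 without wild-type tumor replicate 3 or either knockout tumor replicate (exact permutation test). Epas1 minus Hif1a changed by 0.12 (exact permutation test, two-sided, p = 0.64). This pair depended on the processing in both directions, at 0.70 with quantile normalization (exact permutation test, p = 0.013) and -0.47 with 5 added to n (exact permutation test, p = 0.0216).

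**Figure D4:**
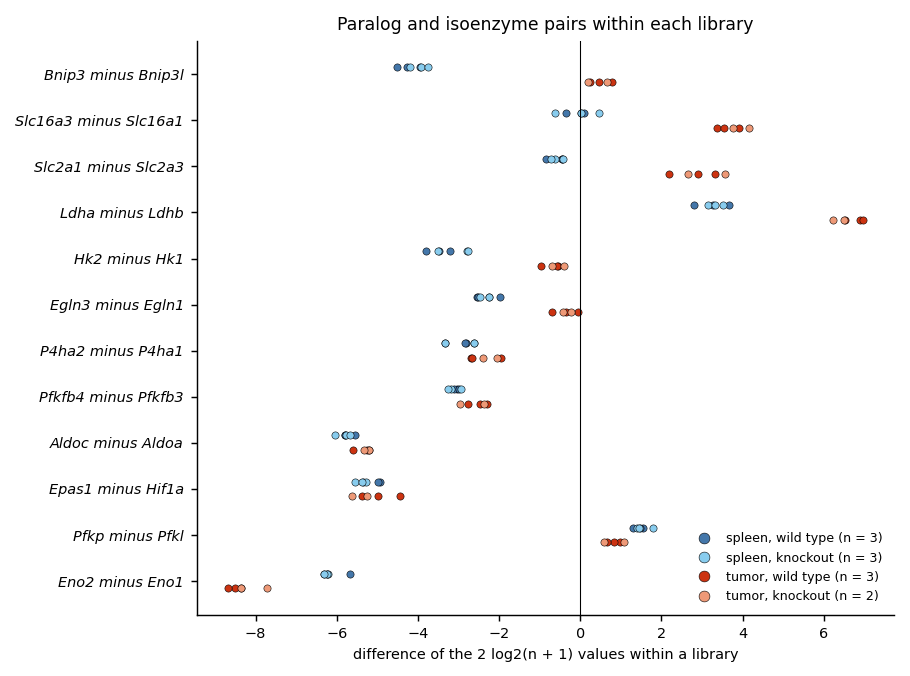
Difference of the log2(n + 1) values of the 2 genes of each pair (horizontal axis) within every library, with spleen libraries in the upper and tumor libraries in the lower row of each pair. Points are single libraries coloured by tissue and genotype. The 2 tissues lie apart in 8 pairs and overlap in the pairs of P4ha2, Pfkfb4, Aldoc and Epas1.

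The differences between tissues were found in both genotypes. Within wild-type mice, 36 members were higher and 1 lower in tumor (39.2% and 31.3% of all genes), and within knockout mice also 36 and 1 (36.2% and 29.5%). Vegfa differed by 6.94 (SE 0.20) in wild type and 6.93 (SE 0.22) in knockout, Slc2a1 by 2.94 (SE 0.10) and 3.12 (SE 0.12), and Ldhb by -1.27 (SE 0.18) and -0.79 (SE 0.21). Slc2a3, Pdk1, Kdm3a and Ddit4 passed the test in neither genotype, Pfkm only in wild type and Eno2 only in knockout. Eno2 differed by 0.04 in wild type (adjusted p = 0.83, limma) and by 0.67 in knockout (adjusted p = 0.0088, limma). The test of the difference between genotypes did not pass for Eno2 (0.63, unadjusted p = 0.030 and adjusted p = 0.9997 from limma) or any other member (0.0% of all genes called). At an unadjusted p below 0.05, limma gave 1 member (2.38%) and 383 of all genes (2.76%) for this interaction.

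Knockout and wild type were not told apart by any member within a tissue. In spleen, limma called 0 of 42 members (0.0% of all genes). At an unadjusted p below 0.05, limma gave 1 member (2.38%) and 281 of all genes (2.02%). That member was Hk1, lower in knockout by -0.31 (SE 0.13, unadjusted p = 0.044 and adjusted p = 0.9997 from limma). In tumor, 0 members were called (0.0072% of all genes, which is 1 gene). An unadjusted p below 0.05 from limma was found for 0 members (0.0%) and 634 of all genes (4.56%). The smallest p in tumor was that of Ldhb, higher in knockout by 0.42 (SE 0.21, unadjusted p = 0.069 and adjusted p = 0.9997 from limma). Over the members, knockout minus wild type ranged from -0.54 to 0.41 in spleen and from -0.56 to 0.46 in tumor, where the knockout group had 2 libraries. Cd177 is not listed, so the genotypes could not be checked from it.

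The tumor libraries were not alike in the level of these genes. Replicate 1 of wild type and replicate 1 of knockout were the lowest 2 tumor libraries for 23 of 42 members (54.8%), a pattern noticed after the values were seen. The same 2 libraries were lowest for 27.4% of all genes tested and for 48.5% of the 4887 genes whose tumor libraries all lay above the spleen libraries. Among the 37 members called higher they were lowest for 22 (59.5%). These shares are a description, and whether they differ was not tested. The median deviation of the 37 raised members from their tumor mean was -0.19 in wild-type replicate 1 and -0.18 in knockout replicate 1. It was 0.10 and 0.19 in wild-type replicates 2 and 3, and 0.13 in knockout replicate 2. The 4887 genes whose tumor libraries all lay above the spleen libraries had the same signs. Their median deviation was -0.14 in wild-type replicate 1 and -0.10 in knockout replicate 1. It was 0.09 in each of wild-type replicates 2 and 3 and knockout replicate 2, so this order is not particular to the members. The log2 sum of T cell and Treg markers was 11.65 and 11.57 in the replicates 1 of wild type and knockout, and 10.94 to 11.17 in the other 3 libraries. Not every marker in this sum followed that order. Foxp3 was at 5.54 and 5.87 in the replicates 1 of wild type and knockout. It was at 4.72 and 5.24 in wild-type replicates 2 and 3, and highest, at 6.12, in knockout replicate 2. The log2 sum of myeloid markers was 14.32 and 14.38 in the replicates 1, and 14.54 to 14.75 in the other 3. The part of these shifts in the level of the members was not tested. The SD was larger in tumor than in spleen for 31 of 42 members, and for 70.0% of all genes tested.

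**Figure D5:**
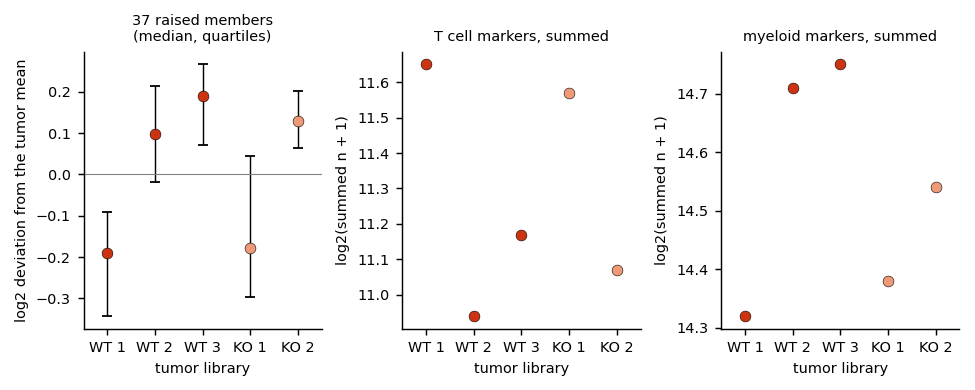
Left, the median (points) and quartiles (bars) of the deviation of the 37 raised members from their mean over the 5 tumor libraries, in log2 units. Middle and right, log2 of the summed n plus 1 of 13 T cell and Treg markers and of 18 myeloid markers in the same libraries (the vertical axes do not start at 0). Wild-type replicate 1 and knockout replicate 1 are lowest in the left and right panels and highest in the middle panel.

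Positions are those of GENCODE release M21 on GRCm38. Vegfa lies on chromosome 17 from 46016993 to 46032369 on the minus strand, Bnip3 on chromosome 7 from 138890836 to 138909519 on the minus strand, and Slc2a1 on chromosome 4 from 119108711 to 119137983 on the plus strand. Ldha lies on chromosome 7 from 46841475 to 46855627 on the plus strand, and Ldhb on chromosome 6 from 142490249 to 142507957 on the minus strand. Hif1a, Pfkm and Pkm share exon sequence with another gene on the same strand, and 15 members, among them Bnip3, Slc2a1, Gapdh and Tpi1, overlap an exon of a gene on the opposite strand. The strand setting of the counting is not given in the sources used here, so reads of these partners may be mixed. Near copies of at least 95% identity over 300 bases were found for 12 members, among them Gapdh, Ldha, Pgk1, Eno1, Tpi1 and Bnip3, and copies of Gapdh and Gpi1 are listed in the table. Of the Gapdh copies, 3 hold the same values, each at 12.9% of the n of Gapdh in spleen and 11.7% in tumor.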

How the data were processed

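Tregs from MC38 tumors and spleens were sequenced after depletion of ribosomal RNA. The authors pseudoaligned single-end reads to mm10 with kallisto (version not given in the sources used here), processed the estimated counts in sleuth 0.30.0, summed them by gene symbol and deposited log2(n + 1) values. Since these are not raw counts, count models and counting intervals were not used. Values entered the fit as deposited, for the 13897 genes with a mean of at least 0.5 (707 were removed). limma 3.58.1 in R 4.3.3 (mean-variance trend, Benjamini-Hochberg adjustment over all genes, threshold 0.05) compared 5 tumor with 6 spleen libraries, and a model with 4 group means gave the genotype contrasts. The fit was tested on simulated data with independent libraries and few changed genes. That test does not cover libraries that share animals or data in which most genes are called. Pairs of genes were compared by exact permutation tests (scipy 1.17.1). Near copies were searched with BLAST 2.17.0, and promoter windows came from RefSeq.

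All members were named or counted. The members, pathway lists, marker lists and pairs were chosen with earlier results of these data known. Alternatives changed the scaling, pseudocount, filter, variance model, replicate block and libraries.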

Additional observations from a re-analysis of the deposited data

Results flagged for a closer look

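In 84 groups of 5 or 6 libraries (42 genes in 2 tissues), 5 single values lay far from the other libraries of their tissue, judged by the gap to the nearest one, where chance alone gives about 4.2 (1 in 20). All 5 were wild-type spleen libraries. Bhlhe40 was at 7.06 in replicate 3, against 5.96 to 6.36 in the other spleen libraries. Eno1 was at 8.03 (8.025) in replicate 1, against 7.79 to 7.85, and Higd1a was at 2.46 (2.455) in replicate 1, against 2.63 to 2.70. Eno2 was at 2.16 in replicate 2, against 1.47 to 1.71. Pgam1 was at 5.07 in replicate 3, against 5.17 to 5.22.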

How the results depend on the processing

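Of the 42 members, 35 kept their direction and call in all 22 alternatives of the pooled fit that tested them. The number of members called for tumor against spleen was 37 to 40 with each library left out, 36 to 38 within wild type, 37 to 38 within knockout and 0 for the genotype contrasts. The median over the members moved to 1.59 with quantile normalization, 1.92 with median centring, 1.51 with equal totals, 1.52 (1.515) with equal totals without Gm12896 (chosen after seeing the data), 1.75 with 5 added to n and 2.26 (2.255) over the 41 members with a mean of at least 2, and ranged from 2.10 to 2.15 with single libraries left out. Eno2 turned to -0.12 with equal totals, with or without Gm12896. Pdk1 turned to -0.32 (quantile), -0.16 (median centring), -0.56 and -0.56 (equal totals with and without Gm12896), and ranged from -0.03 (-0.034, without wild-type tumor replicate 3) to 0.11 with libraries left out. Kdm3a turned to -0.25, -0.20, -0.59 and -0.58 in the same order, and ranged from -0.01 (-0.012, without knockout tumor replicate 1) to 0.044 with libraries left out. With 5 added to n, Epas1 minus Hif1a turned to -0.47, Pfkfb4 minus Pfkfb3 to -0.098, Aldoc minus Aldoa to -0.62 and P4ha2 minus P4ha1 to -0.10, and leaving out single libraries moved Epas1 minus Hif1a between -0.059 and 0.24. Of 12 pairs, 8 kept their direction and side of 0.05 in all 16 alternatives. The cause of these changes was not tested.

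Replicate numbers are shared between tumor and spleen, but deviations of same-numbered libraries correlated by -0.128 to 0.0375 over 5 pairs, so the numbers were not taken as pairs. With the replicate block, 39 members were called, as without it. The sums of n lie far below the read depth in the study's methods and their scaling is not stated, so what low counts limit cannot be given.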
